A study of Homo sapiens with 3 samples.

Results

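The switch that commits a cell to mitosis was followed at the RNA level through 10 genes: CDK1, the cyclins CCNA2, CCNB1 and CCNB2, the phosphatases CDC25A, CDC25B and CDC25C, the inhibitory kinases WEE1 and PKMYT1, and CCNF. They were chosen by gene symbol, and all 10 were found among the 14949 genes of the deposited table. RNA sequencing had been done on 3 libraries of MIAPaCa-2, a cell line long established from a human pancreatic cancer. One came from cells with a control hairpin (sh-CTL) and one from cells with a hairpin against METTL3 (sh-METTL3), both untreated, and one from sh-CTL cells exposed for 24 h to 80 nM of NMS-P937, which inhibits PLK1 (sh-CTL + PLK1i). They are called the control, the hairpin library and the inhibitor library below. The sh-CTL library is listed as untreated, with no vehicle, and whether each hairpin line was a clone or a pool was not given in the sources used here. Each group was 1 library, so no difference below has a replicate check or a p-value, and the 95% intervals compare libraries, not conditions.

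CDK1 is the kinase that drives entry into mitosis, and it is active only when bound to a cyclin. WEE1 in the nucleus and PKMYT1 at the membranes of the endoplasmic reticulum and Golgi hold it off by phosphorylating it, and the CDC25 phosphatases take those phosphates away. PLK1, the target of the inhibitor, phosphorylates CDC25C and WEE1 and so tips this balance, and METTL3 is the subunit that does the catalysis in the RNA N6-methyladenosine writer. Most of this control acts on protein activity, which RNA levels do not show. Transcripts of most of these genes also build up from S phase to G2, under complexes that bind the cell cycle genes homology region (CHR) and CCAAT boxes of their promoters. In bulk RNA, a different number of cells in G2 and a different amount of RNA per cell cannot be told apart.

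Depth ranged from 37449251 to 47727614 reads in listed genes, and the 10 genes together took 0.139% to 0.145% of them. METTL3 itself, in normalized counts, was at 3939 in the control, 1651 in the hairpin library and 3888 in the inhibitor library, so the library labelled sh-METTL3 held 41.9% of the control level. PLK1 was at 8058, 5226 and 8515 in the same order. The epithelial keratins KRT8, KRT18 and KRT19 were all abundant, with a summed normalized count from 141582 to 182424, highest in the hairpin library. VIM, a mesenchymal marker, ran from 185206 in the hairpin library to 246423 in the inhibitor library. Of the fibroblast markers, COL1A1 was at no more than 40 and the 2 collagens COL1A1 and COL1A2 summed to between 40975 and 51465. Of the 6 epithelial markers looked up, only the 3 keratins above had values. KRT7, EPCAM, CDH1, DCN and the acinar, endocrine, blood and endothelial markers had no value among the genes kept here. Whether the keratin and VIM differences bear on the values below was not tested.

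The promoters of 8 of the 10 genes were found in RefSeq (GRCh38.p14), in windows from 250 bases before to 50 bases after the gene start. Matches on either strand to the CHR letters TTTGAA or TTCGAA and to CCAAT are in capitals below, in the strand of the gene, and the 2 motifs do not overlap in the stretches shown. These 5 are shown because CCNB1 and CCNB2 kept close to each other in all 3 libraries while CDK1, CDC25B and CCNF were lower in the inhibitor library. CDK1 and CDC25B have more than 1 start in RefSeq, and the second and the third are shown, respectively.
CDK1, chr10:60778453-60778482, plus strand: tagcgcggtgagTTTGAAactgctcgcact
CCNB1, chr5:69167040-69167149, plus strand: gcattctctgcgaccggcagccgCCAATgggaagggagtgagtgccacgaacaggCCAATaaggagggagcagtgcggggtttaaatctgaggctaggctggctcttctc
CCNB2, chr15:59105036-59105125, plus strand: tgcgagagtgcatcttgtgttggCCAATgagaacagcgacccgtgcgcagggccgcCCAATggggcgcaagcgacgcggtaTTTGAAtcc
CDC25B, chr20:3796200-3796309, plus strand: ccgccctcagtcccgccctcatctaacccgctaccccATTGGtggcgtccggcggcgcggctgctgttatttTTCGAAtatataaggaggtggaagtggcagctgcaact
CCNF, chr16:2429337-2429393, plus strand: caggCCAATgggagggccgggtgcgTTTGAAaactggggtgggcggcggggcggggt
Over their whole windows, CDK1 held 3 CHR matches at this start, CCNF held 2, CCNB2 and CDC25B held 1 each and CCNB1 held 0. CCAAT matches numbered 2 in CDK1, 2 in CCNB1, 4 in CCNB2, 1 in CDC25B and 4 in CCNF. The stretch shown for CDK1 is short, and its CCAAT matches lie outside it. Of all 35116 RefSeq windows of this length, 16.4% held at least 1 CHR match and 2.51% held 2 or more. A CCAAT match was held by 34.6%, and 10.8% held 2 or more. At their other starts, CDK1 held 1 CHR match and CDC25B held 0 at each of 3. Among the genes not shown, CCNA2 and CDC25A held 0 CHR matches, and CDC25C held 1 at some of its starts and 0 at others. The start shown was chosen for its matches, and the shares are per window, so nothing follows from a match at 1 of several starts. The 5 genes were themselves chosen by their values, and whether matches go with the changes was not tested. A match is a description of the letters and not of binding. Only TTTGAA and TTCGAA were searched, so the 0 of CCNB1 does not show that its promoter lacks a CHR of other letters.

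Per kilobase of the canonical transcript, CCNB1 was by far the most abundant of the 10 genes. Its level ran from 10198 to 11102 normalized counts per kilobase over the 3 libraries. CCNB2, the second B cyclin, ran from 3925 to 4150, CDC25B from 3076 to 4166, CDK1 from 2531 to 3793 and CCNA2 from 1982 to 2562 on the same scale. Neighbouring ranges among these 4 overlapped, while CCNB1 stood clear of all of them. The libraries are different conditions, so an overlap of ranges does not make 2 genes alike within a library. CDK1 was at 3434 and CCNA2 at 2352 in the control, and at 3793 and 1982 in the hairpin library. With the inhibitor they were at 2531 and 2562. The second tier was lower, with no overlap with the first. PKMYT1 ran from 914 to 982 normalized counts per kilobase and CDC25C from 640 to 839, and these 2 ranges did not overlap. CDC25C met WEE1, at 573 to 640, only at the edge of its range. WEE1, CDC25A at 558 to 670 and CCNF at 517 to 661 overlapped one another. Dividing by the length of all exons of a gene kept CCNB1 first but put CCNB2 at position 4, behind CDC25B and CCNA2, and moved PKMYT1 from position 6 to 9 and WEE1 from position 8 to 10. The exons of WEE1 span 9251 bases in all, against 3588 in its canonical transcript.

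**Figure D1:**
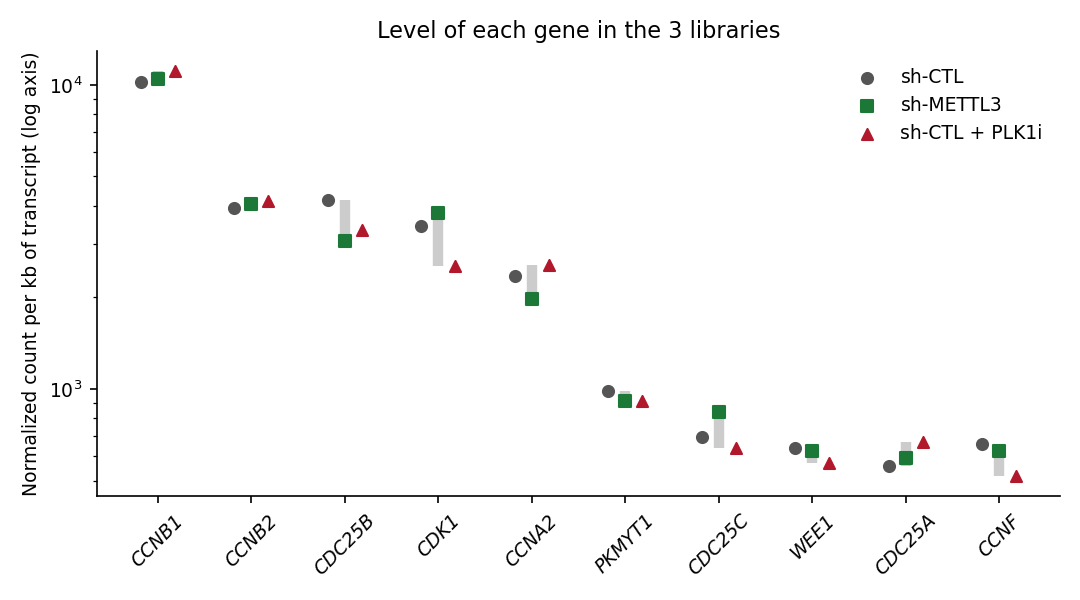
Normalized count per kilobase of canonical transcript (log axis) of each gene in the sh-CTL, sh-METTL3 and sh-CTL + PLK1i libraries, 1 point per library, with a grey bar from the lowest to the highest. CCNB1 lies between 10198 and 11102, and the 5 genes of the lower tier all lie between 517 and 982.

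CDK1, the kinase at the centre, lies at chr10:62538089-62554610 on the plus strand (GRCh37, as are all gene positions given here). Its normalized count, the reads as scaled by the authors to a common depth, was 6487 in the control, 7165 in the hairpin library and 4781 in the inhibitor library. The inhibitor library was the lowest of the 3 and the hairpin library the highest. Against the control, the log2 change (the difference of the log2 of the normalized count plus 1) was 0.14 in the hairpin library (95% exact counting interval 0.09 to 0.19) and -0.44 in the inhibitor library (-0.50 to -0.39), so CDK1 RNA with the inhibitor was at 73.7% of the control. Of the 9074 genes that were well covered (mean normalized count 500 or more), 1.49% were as low or lower in that comparison, against 20.9% that were as high or higher than CDK1 in the hairpin library. The genes around CDK1 on its chromosome had a median change of 0.04 with the inhibitor.

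Of the cyclins, the B type partners of CDK1 held nearly the same level in all 3 libraries. CCNB1 (chr5:68462962-68474072, plus strand), the main mitotic cyclin, had a normalized count of 20692 in the control, 21261 in the hairpin library and 22525 in the inhibitor library. Its log2 change was 0.04 in the hairpin library (0.01 to 0.07) and 0.12 in the inhibitor library (0.09 to 0.15). CCNB2 (chr15:59397325-59417244, plus strand), the B cyclin found mainly at the Golgi, was at 5840, 6044 and 6175 in the same order. Its log2 changes were 0.05 (-0.00 to 0.10) and 0.08 (0.03 to 0.13), and the first could not be told from 0 at this depth. Both B cyclins were thus slightly higher in the library in which their kinase was lower. Taken relative to the genes around them, CCNB1 changed by 0.10 there and CCNB2 by 0.01, outside its counting interval.

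CCNA2 (chr4:122737599-122745038, minus strand), the cyclin of S phase and G2 that binds CDK2 and CDK1, was the CDK1 partner that differed most between the libraries. Its normalized count was 6464 in the control, 5446 in the hairpin library and 7041 in the inhibitor library. It was lowest with the METTL3 hairpin and highest with the inhibitor, the reverse of CDK1. Its log2 change was -0.25 in the hairpin library (-0.30 to -0.19) and 0.12 in the inhibitor library (0.07 to 0.17). CCNA2 overlaps EXOSC9 on the other strand. The library kit marks strand, but whether the counting used it was not given in the sources used here, so some reads of one may have been counted for the other.

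The 3 CDC25 phosphatases, which switch CDK1 on, did not move as a group in either comparison. CDC25B (chr20:3767419-3786768, plus strand), thought to give the first activation of CDK1 at the centrosome, had a normalized count of 12995 in the control, 9595 in the hairpin library and 10416 in the inhibitor library. It was lower in both perturbed libraries, with a log2 change of -0.44 in the hairpin library (-0.48 to -0.40) and -0.32 in the inhibitor library (-0.36 to -0.28). The control is common to both comparisons, so a high value in it would lower both. The genes around CDC25B had a median of -0.14 in the hairpin library and 0.08 with the inhibitor.

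CDC25C (chr5:137620958-137674044, minus strand), the phosphatase on which the G2 checkpoint acts and a PLK1 substrate, was at 1453, 1756 and 1339 normalized counts in the same order of libraries. It was highest in the hairpin library, where its log2 change was 0.27 (0.17 to 0.38), against -0.12 in the inhibitor library (-0.23 to -0.01). It overlaps FAM53C on the other strand, with the same limit as for CCNA2. CDC25A (chr3:48198636-48229907, minus strand), which acts on CDK2 at the start of S phase as well as on CDK1, was at 2143, 2275 and 2576. Its log2 change was 0.09 in the hairpin library (-0.00 to 0.17), not told from 0 at this depth, and 0.27 in the inhibitor library (0.18 to 0.35). Each of the 3 phosphatases thus had its highest value in a different library.

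The kinases that hold CDK1 off varied little. WEE1 (chr11:9595217-9615004, plus strand) was at 2296 normalized counts in the control, 2235 in the hairpin library and 2055 in the inhibitor library, with log2 changes of -0.04 (-0.13 to 0.05) and -0.16 (-0.25 to -0.07). PKMYT1 (chr16:3018025-3030480, minus strand) was at 2023, 1887 and 1884, with log2 changes of -0.10 in both comparisons (-0.19 to -0.01 and -0.20 to -0.01). Neither reached a log2 change of 0.25 in either perturbed library. PKMYT1 overlaps PAQR4 and KREMEN2 on the other strand, with the limit given for CCNA2.

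CCNF (chr16:2479395-2508855, plus strand) encodes cyclin F, which binds no CDK and instead selects proteins for destruction in G2 as the F-box subunit of an SCF ubiquitin ligase. Its normalized count was 2796 in the control, 2636 in the hairpin library and 2186 in the inhibitor library. It was lowest with the inhibitor, with a log2 change of -0.35 (-0.44 to -0.27), and 3.15% of the well-covered genes were as low or lower there. In the hairpin library the change was -0.09 (-0.16 to -0.01). The genes around CCNF were also lower with the inhibitor, by a median of -0.13, and taken relative to them CCNF changed by -0.22, short of the 0.25 used to count a gene as lower.

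**Figure D2:**
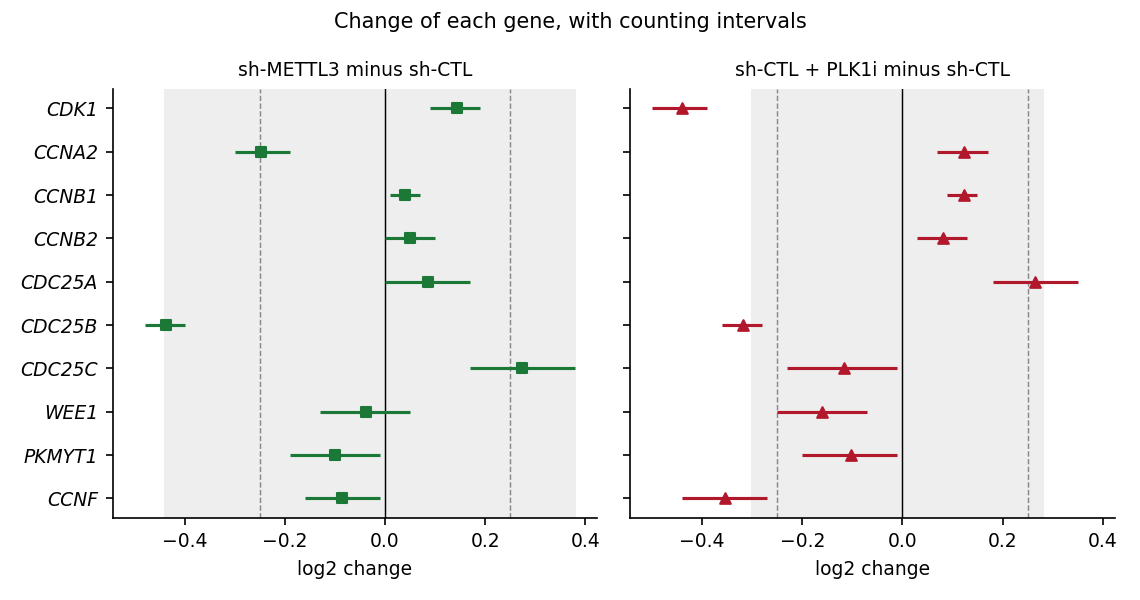
Log2 change of each gene in sh-METTL3 (left) and sh-CTL + PLK1i (right) against sh-CTL, with 95% exact counting intervals as lines. Dashed lines mark a change of 0.25 either way and the grey band holds the middle 90% of well-covered genes, so that CDK1, CCNF and CDC25B fall below the band on the right.

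Counted at a log2 change of at least 0.25, 1 of the 10 genes was higher in the hairpin library (CDC25C) and 1 was lower (CDC25B). Over all genes, 19.9% were higher and 19.1% lower at that size, and among well-covered genes, which all 10 are, 10.4% were higher and 14.3% lower. The share of the switch in the hairpin library was therefore near the background. CCNA2 lay just outside the limit at -0.2472, and CDC25C just inside it at 0.2728. Relative to neighbouring genes the count was 0 higher and 2 lower, with CDC25C at 0.19 no longer counted and CCNA2 at -0.27 counted as lower. In sh-CTL + PLK1i, 1 of 10 was higher (CDC25A) and 3 were lower (CDK1, CDC25B and CCNF), where the background was 14.2% higher and 15.4% lower over all genes and 7.15% and 7.52% among well-covered genes. The 3 lower genes were a larger share than that background, which with 10 genes is a description only. CDC25A lay just inside the limit there and fell just short of it under upper-quartile scaling. None of the 10 changed by a log2 of 1, that is 2-fold, in any comparison, while 6.37% of all genes did so in the hairpin library, 2.52% in the inhibitor library and 7.47% between those libraries.

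The median change of the 10 genes was 0.00 in the hairpin library and -0.11 in the inhibitor library, beside a median of 0.00 over all genes in both. The changes spread over the genes with an SD of 0.20 and 0.23, respectively, against 0.32 and 0.19 among all well-covered genes.

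The perturbed libraries were also set against each other, which needs no control library. In the inhibitor library relative to the hairpin library, CDK1 differed most, with a log2 difference of -0.58 (-0.63 to -0.53). CDC25C was lower by -0.39 (-0.49 to -0.29) and CCNF by -0.27 (-0.35 to -0.19), and CCNA2 was higher by 0.37 (0.32 to 0.42). These were the 4 of 10 genes past 0.25, 1 higher and 3 lower, where 23.3% of all genes were higher and 24.3% lower, and 19.6% and 15.3% among well-covered genes. Relative to neighbouring genes 2 were higher and 2 lower, since CCNF, at -0.21, was no longer counted and CDC25A, at 0.29, was. CCNB2, with a difference of 0.03 (-0.02 to 0.08), and PKMYT1, with -0.00 (-0.09 to 0.09), could not be told apart between the libraries. CDC25B, lower than the control in both, differed by 0.12 (0.08 to 0.16) between them, and by -0.09 relative to neighbouring genes, so the direction of that difference turned.

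Ratios within a library do not depend on how libraries were scaled to each other. CCNB1 and CCNB2 together made 4.11 times the per-kilobase level of CDK1 in the control, 3.83 times in the hairpin library and 6.03 times in the inhibitor library. The log2 ratio was thus 0.55 above the control with the inhibitor (counting interval 0.49 to 0.61) and differed by -0.10 in the hairpin library (-0.16 to -0.05). CCNA2 made 0.685 of the CDK1 level in the control, 0.522 in the hairpin library and 1.01 in the inhibitor library. That ratio moved by -0.39 on the log2 scale with the hairpin (-0.46 to -0.32) and by 0.56 with the inhibitor (0.49 to 0.64), the widest gap between the perturbed libraries of the 7 ratios. Between those libraries the cyclin A to CDK1 ratio differed by 0.95 (0.88 to 1.02), or 1.94-fold.

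The ratio of CCNB1 to CCNB2 was the steadiest, at 2.60, 2.58 and 2.68 in the control, hairpin and inhibitor libraries, and its differences from the control of -0.01 (-0.07 to 0.05) and 0.04 (-0.02 to 0.10) were within counting error. CCNF to CDK1 was at 0.193, 0.164 and 0.204. With the inhibitor, where both genes were lower, the ratio differed from the control by 0.09 (-0.01 to 0.18), which counting error covers, while in the hairpin library it differed by -0.23 (-0.32 to -0.14). The 2 inhibitory kinases also kept their ratio, with WEE1 at 0.652, 0.680 and 0.626 of PKMYT1 and differences of 0.06 (-0.06 to 0.19) and -0.06 (-0.18 to 0.07).

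The summed CDC25 level stood at 3.34 times the summed WEE1 and PKMYT1 level in the control, 2.93 times in the hairpin library and 3.13 times in the inhibitor library. The log2 differences from the control were -0.19 (-0.26 to -0.12) and -0.10 (-0.17 to -0.02). CDC25B makes up most of that sum. The make-up of the phosphatases shifted more than the total. CDC25B was at 6 times CDC25C in the control, 3.67 times in the hairpin library and 5.22 times in the inhibitor library, a log2 difference of -0.71 (-0.82 to -0.60) with the hairpin and -0.20 (-0.32 to -0.09) with the inhibitor.

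**Figure D3:**
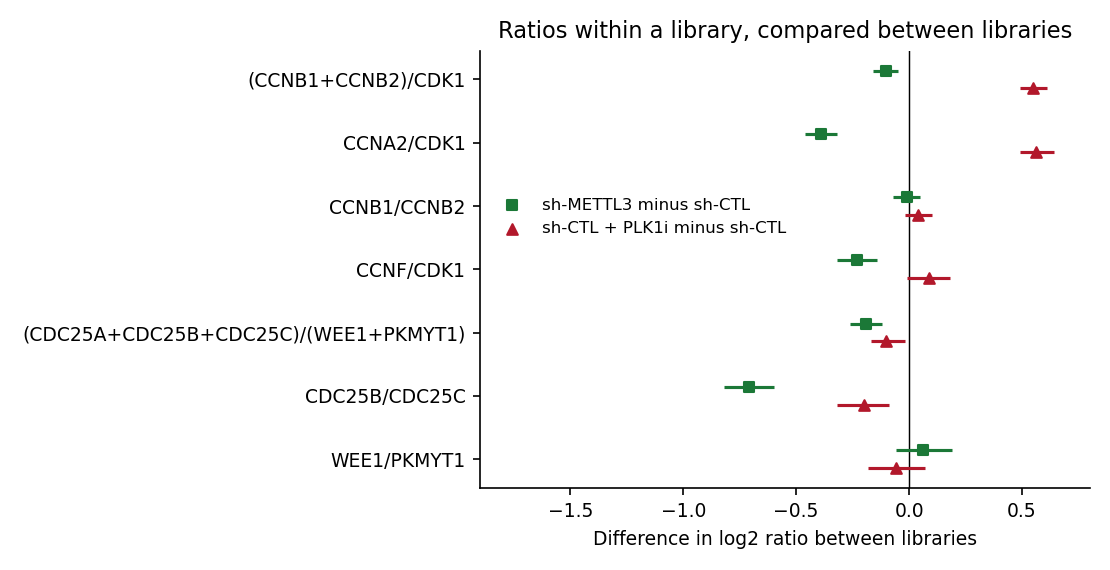
Difference in the log2 ratio of 7 gene pairs or sums (per kilobase, within a library) of sh-METTL3 (squares) and sh-CTL + PLK1i (triangles) from sh-CTL, with 95% counting intervals as lines. With the inhibitor, the B cyclin and CCNA2 ratios to CDK1 sit at 0.55 and 0.56 and CCNF to CDK1 at 0.09, all divided by the same CDK1 value. CDC25B to CDC25C sits at -0.71 in sh-METTL3.

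Genes that act on the switch were counted in 8 lists by role, to be read against the share of all genes past 0.25. That share was 19.9% higher and 19.1% lower in the hairpin library and 14.2% and 15.4% in the inhibitor library. Among well-covered genes, which most of the listed genes are, it was 10.4% and 14.3% with the hairpin and 7.15% and 7.52% with the inhibitor. Of the 8 activators, 0 were higher and 1 lower in the hairpin library, and 4 were higher and 1 lower in the inhibitor library, with median changes of 0.03 and 0.26. The 4 of 8 higher with the inhibitor were above the 14.2% of all genes and the 7.15% of well-covered genes. The other counts were near or below the share of all genes. The 1 lower with the inhibitor was above the 7.52% of well-covered genes. PLK1, which had a log2 change of -0.62 in the hairpin library (-0.68 to -0.57) and 0.08 with the inhibitor (0.03 to 0.12), was the lower one with the hairpin. With the inhibitor, BORA, the cofactor through which AURKA activates PLK1, changed by 0.41. The small subunits that dock on CDK1 went opposite ways in that library. CKS1B was at 6248 normalized counts in the control and 4697 with the inhibitor, a log2 change of -0.41 (-0.47 to -0.36), and CKS2 at 6534 and 8601, a change of 0.40 (0.35 to 0.44). CKS1B has processed copies elsewhere in the genome, between which reads may have been split.

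Greatwall keeps CDK1 substrates phosphorylated by restraining the phosphatase PP2A-B55, and most of the 9 genes listed for this branch encode PP2A subunits. Of the 9, 1 was higher and 1 lower in the hairpin library, and 1 was higher and 0 lower with the inhibitor. The B55 subunit PPP2R2D changed by 0.30 and the scaffold subunit PPP2R1B by -0.25 in the hairpin library, and the catalytic subunit PPP2CB changed by 0.30 with the inhibitor. The median changes were -0.05 and 0.03, and each count was below the share over all genes. Among well-covered genes the shares higher were 10.4% with the hairpin and 7.15% with the inhibitor, and the 1 of 9 higher was above both.

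The checkpoint list, of 13 genes that hold cells in G2 after damage, held the widest differences. In the hairpin library, 1 was higher and 4 lower, and in the inhibitor library 4 were higher and 1 lower, with medians of -0.01 in both, beside 19.9% higher and 19.1% lower of all genes with the hairpin and 14.2% and 15.4% with the inhibitor. The 1 higher with the hairpin was SFN, with 28 reads in the control and 50 in the hairpin library, a change of 0.49 that counting error covers (-0.19 to 1.23). GADD45A, a stress gene whose protein can part CDK1 from cyclin B1, was at 1515 normalized counts in the control, 853 in the hairpin library and 2987 in the inhibitor library, log2 changes of -0.83 (-0.95 to -0.71) and 0.98 (0.89 to 1.07). CDKN1A, which encodes the CDK inhibitor p21 and was picked out here after its values were seen, was at 506, 154 and 766, log2 changes of -1.71 (-1.98 to -1.46) and 0.60 (0.43 to 0.77). Both inhibitors of CDK complexes were thus below the control with the hairpin and above it with the inhibitor. The 14-3-3 genes YWHAG and YWHAE, whose products hold CDC25 phosphatases in the cytoplasm, changed by -0.65 and -0.35 in the hairpin library. The rest of the 14-3-3 genes did not follow there, with YWHAQ at 0.17, YWHAH at 0.07, YWHAB at 0.04 and YWHAZ at -0.04. With the inhibitor, YWHAH changed by 0.30 (0.25 to 0.34), and ATM, the kinase that signals double-strand breaks, by -0.42. SFN was also counted as higher there, at 0.72 (0.06 to 1.44), on only 28 reads in the control and 59 with the inhibitor.

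Of the 14 genes that control late cell cycle transcription, none reached 0.25 in the hairpin library, where 19.9% of all genes were higher and 19.1% lower. In the inhibitor library 0 were higher and 2 lower. The 2 lower were near the 15.4% of all genes, and above the 7.52% of well-covered genes. They were RBBP4 at -0.37 and RBL1 at -0.26, both found in the DREAM complex of these promoters. Of its other parts, RBL2 changed by -0.19 and E2F4 by 0.16 there. FOXM1, the activator of the G2 set, was at 17514, 17149 and 17697 normalized counts in the control, hairpin and inhibitor libraries. Of 8 genes for the destruction of cyclins and their regulators, 1 was lower in each comparison, with none higher. That was below the 19.1% and 15.4% of all genes that were lower. Among well-covered genes 14.3% and 7.52% were lower, and the 1 of 8 with the inhibitor was above that share. In sh-METTL3 the lower gene was CUL1, the scaffold of SCF ligases including that of cyclin F, at -0.39 (-0.44 to -0.34). With the inhibitor it was FZR1, which encodes an activator of the anaphase-promoting complex, at -0.55 (-0.65 to -0.46), from 2406 normalized counts to 1638. CDC20, its partner activator in mitosis, which like FOXM1 was picked out after its values were seen, changed by -0.08 and 0.19.

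Among 5 proteins that cyclin F sends to destruction, the transcript of 1 was lower with the inhibitor, NUSAP1 at -0.29, and none reached 0.25 in the hairpin library. In the inhibitor library 15.4% of all genes and 7.52% of well-covered genes were lower. The 1 of 5 was above both shares, which with 5 genes is a description only. Of 17 other late cell cycle genes, 1 was higher and 0 lower in the hairpin library, the kinesin KIF20A at 0.34, and the median change was 0.12. With the inhibitor 1 was higher and 2 were lower, with a median of 0.04. These counts of the 17 genes were below the shares over all genes in both comparisons. The 2 lower with the inhibitor were above the 7.52% of well-covered genes. TOP2A, which untangles sister chromatids, was at 43126 normalized counts in the control, 50297 in the hairpin library and 29422 in the inhibitor library, a log2 change of -0.55 with the inhibitor (-0.57 to -0.53) and 0.22 with the hairpin (0.20 to 0.24). UBE2C, the ubiquitin-conjugating enzyme of the anaphase-promoting complex, changed by -0.34 and CDCA8, of the chromosomal passenger complex, by 0.32 with the inhibitor. The order of TOP2A over the libraries was that of CDK1, highest in the hairpin library and lowest with the inhibitor. This order was not particular to TOP2A. UBE2C, CDCA3, AURKB, TTK, BIRC5 and DLGAP5 shared it and the rest of the 17 did not, while CDC25C of the switch also had it. Of 7 G1 cyclins and CDKs with values, only CDK4 reached 0.25 in the hairpin library, at 0.39 (0.34 to 0.44), and none did with the inhibitor. The 1 of 7 higher was below the 19.9% of all genes and above the 10.4% of well-covered genes. With the inhibitor 14.2% of all genes were higher and 15.4% lower. CCND2 was looked up and had no value among the genes kept here.

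**Figure D4:**
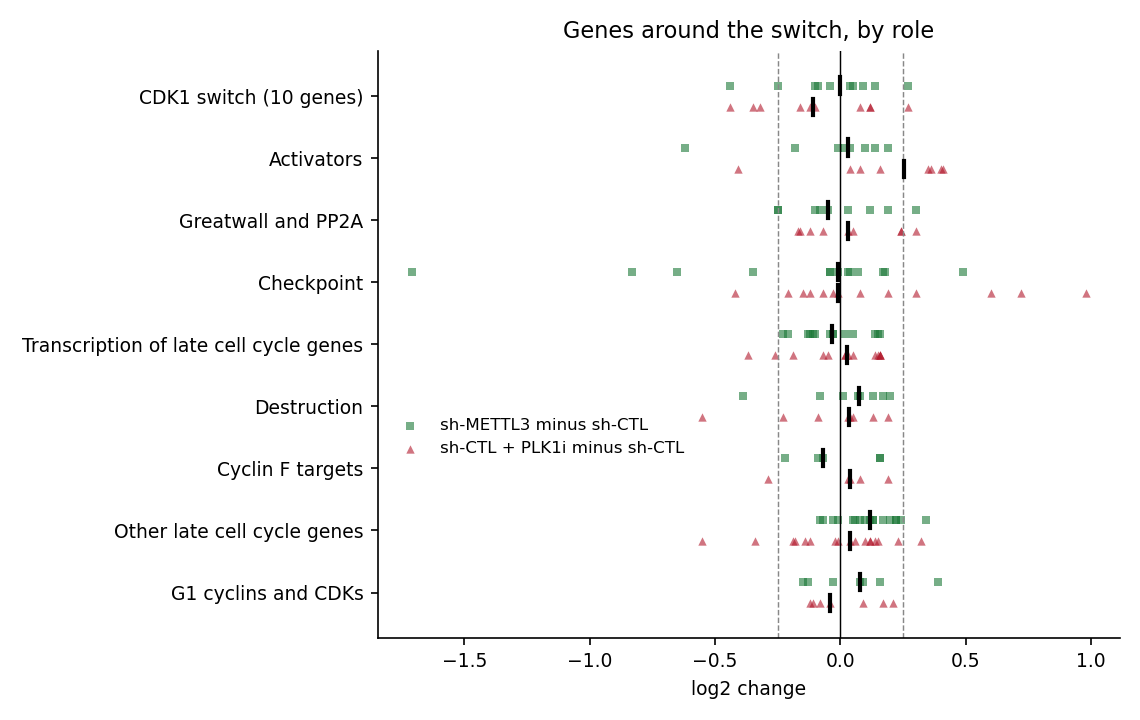
Log2 change of every gene of the switch and of 8 lists around it in sh-METTL3 (squares) and sh-CTL + PLK1i (triangles) against sh-CTL, 1 point per gene, with a black bar at the median of each list. Dashed lines mark 0.25 either way, and CDKN1A at -1.71 and GADD45A at 0.98 are the end points.

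Genes were ranked by how close their changes in both comparisons were to those of CDK1, over the 3 libraries. Of 9073 other well-covered genes, 14 lay within 0.05 of CDK1 in both. The nearest were TSPYL4, with changes of 0.14 and -0.45, the antisense transcript SLC9A3-AS1, with 0.14 and -0.45, and KANK2, with 0.16 and -0.44. None of these 3 was a member of the lists above, and with 2 changes per gene such closeness is a description only.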

How the data were processed

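Libraries were prepared from ISOGEN-extracted RNA with a stranded mRNA kit, per the labels, and the submitters' processing notes name FastQC 0.11.9, STAR 2.7.10, RSEM 1.3.3 and hg19. The authors deposited 1 table of log2 values, 1 column per library, with a minimum of 2. These values followed log2 of a normalized count plus 4. The tool that normalized them and whether counting used strand were not given in the sources used here. The 3 columns were matched to the sample titles by their names.

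Whole reads were recovered by undoing the log2, subtracting 4 and dividing by the value of 1 read (1.17, 0.927 and 0.921 in sh-CTL, sh-METTL3 and sh-CTL + PLK1i). All values of fewer than 2000 reads came out whole (100%, to within 0.1), and larger ones were rounded. With 1 library per group no count test was run on these reads. A change is the difference of log2(normalized count + 1), which understates changes of low genes, and genes with a mean of at least 1 were kept. Intervals of single genes are exact (Clopper-Pearson, on the reads of both libraries), and those of ratios are normal approximations from the read counts. Both cover counting error only, since amplified reads that carry no molecular identifier cannot be taken as separate molecules. Recovery and intervals were tested only on simulated reads that held counting error and no spread between replicate libraries, so such spread was not tested. Lengths and GRCh37 positions came from GENCODE 44, and neighbouring genes were up to 12 on either side with a mean of at least 50. From each list, up to 3 genes with a change of at least 0.25 and a mean of at least 500 were named per comparison. Some listed genes are not reported here and were left out of the counts. The genes and lists were chosen with earlier results of these data known. Python 3.11.15, numpy 2.4.6, pandas 2.3.3 and scipy 1.17.1 were used.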

Additional observations from a re-analysis of the deposited data

How the results depend on the processing

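With 1 library per group, no library could be left out and no paired analysis was possible because the groups had no replicates. Each change was recomputed under 9 other settings: scaling by total reads, upper quartile, median of ratios or TMM, centring on genes with a mean of at least 500, 0.5 or 4 added before the log2, a filter at a mean of 200, and subtraction of the median change of neighbouring genes. Those of the direct comparison and the use of all-exon lengths were chosen after seeing the data. Of 270 single-gene values, 260 stayed within their counting interval and none of the changes of at least 0.25 changed sign. Among smaller ones, CDC25B in sh-CTL + PLK1i against sh-METTL3 turned from 0.12 to -0.09, CCNB1 there from 0.08 to -0.08, and WEE1 in sh-METTL3 from -0.04 to 0.04, relative to neighbours. Of the 10 that moved further, 9 came from the neighbour subtraction. A limit of 0.32 left 1 gene with the hairpin and 2 with the inhibitor. Relative to neighbours the median in sh-CTL + PLK1i against sh-METTL3 was -0.086 in place of 0.014, and CDC25C in sh-METTL3, at 0.19, was no longer counted as higher, while CCNA2 there, at -0.27, was counted as lower. The CDC25 to inhibitory kinase ratio depended on which paralogs stood for the sums. In sh-METTL3 it moved by 0.12 for CDC25A over WEE1, 0.19 for CDC25A over PKMYT1, -0.40 for CDC25B over WEE1, -0.34 for CDC25B over PKMYT1, 0.31 for CDC25C over WEE1 and 0.37 for CDC25C over PKMYT1. In sh-CTL + PLK1i the values were 0.43 and 0.37 for CDC25A, -0.22 for CDC25B over PKMYT1, and 0.04 and -0.01 for CDC25C, over WEE1 and PKMYT1 in turn. The sums follow CDC25B, which has the most reads of the 3.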
